A study of Mus musculus with 4 samples.

Results

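Expression of 10 genes that cut proteins into peptides and load them onto MHC class I molecules was examined in the colonic mucosa of mice at 2 postnatal ages. They are the inducible catalytic subunits of the proteasome (Psmb8, Psmb9, Psmb10), the subunits of its activator PA28 (Psme1, Psme2), the peptide transporter and its loading factor (Tap1, Tap2, Tapbp), the trimming peptidase Erap1 and the class I light chain B2m. The genes were chosen by name, and every array probe whose accession maps to one of them was taken. This gave 10 genes with 14 probes on 23 spots of each array, out of 20825 genes and transcripts tested and 41174 distinct probes. All 10 genes passed the filter on dim probes, and all 14 probes were well above background in both channels of all 4 arrays.

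The series compares C57BL/6 mice at postnatal day 90 (P90) with C57BL/6 mice at postnatal day 30 (P30), with no allele or treatment named in either group. Total RNA came from colonic mucosa scraped off with a microscope slide and was hybridised to 4 arrays of 1 slide, named a, b, e and k in the labels, with 1 P90 and 1 P30 RNA in opposite dyes on each. Array e carried P90 in Cy5, and the other 3 carried it in Cy3. The labels call the 4 comparisons independent but do not say whether each animal was used once, so the p-values measure only the spread among the 4 pairs, which may be technical in part.

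The proteasome is the barrel-shaped protease that degrades ubiquitin-tagged proteins. Interferon gamma makes cells build it with inducible catalytic subunits in place of the constitutive ones, and this immunoproteasome favours peptides that suit class I molecules. The Tap1 and Tap2 transporter carries peptides into the endoplasmic reticulum, where they are trimmed and loaded onto a heavy chain paired with B2m for display to cytotoxic T cells. In the colon both epithelial cells and leukocytes of the mucosa carry class I molecules.

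The promoters of 4 of these genes are shown because their ratios pair up or split in the data below. The windows run from 250 bases before to 50 bases after the annotated start, 5′ to 3′ on the strand of the gene. They come from RefSeq on build GRCm38.p6, where 9 of the 10 genes matched an entry, Psme2 with 2 windows. Capitals mark matches to an interferon response element (GAAANNGAA) in B2m and Erap1, to a kappa B element in B2m and to a gamma-activated site (TTCNNNGAA) in Psmb8.
B2m, chr2:122147437-122147736, plus strand: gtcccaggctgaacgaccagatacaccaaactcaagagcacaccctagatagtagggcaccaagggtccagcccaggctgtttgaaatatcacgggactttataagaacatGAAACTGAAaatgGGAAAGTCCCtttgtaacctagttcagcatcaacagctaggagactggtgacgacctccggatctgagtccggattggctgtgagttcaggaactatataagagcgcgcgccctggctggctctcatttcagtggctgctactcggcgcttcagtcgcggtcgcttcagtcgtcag
Erap1, chr13:74639603-74639902, plus strand: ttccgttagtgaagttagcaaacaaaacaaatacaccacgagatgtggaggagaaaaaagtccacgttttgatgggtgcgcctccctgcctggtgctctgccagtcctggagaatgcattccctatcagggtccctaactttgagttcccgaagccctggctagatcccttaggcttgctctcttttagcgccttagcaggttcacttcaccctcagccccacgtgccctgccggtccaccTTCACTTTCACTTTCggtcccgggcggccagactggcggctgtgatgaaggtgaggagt
Psmb8, chr17:34197945-34198244, plus strand: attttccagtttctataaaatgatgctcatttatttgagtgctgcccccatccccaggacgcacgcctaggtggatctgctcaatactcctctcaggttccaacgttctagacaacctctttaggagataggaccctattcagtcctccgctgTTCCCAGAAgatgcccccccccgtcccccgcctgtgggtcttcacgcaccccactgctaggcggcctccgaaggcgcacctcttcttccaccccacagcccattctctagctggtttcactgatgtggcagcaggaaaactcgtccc
Tap1, chr17:34187306-34187605, plus strand: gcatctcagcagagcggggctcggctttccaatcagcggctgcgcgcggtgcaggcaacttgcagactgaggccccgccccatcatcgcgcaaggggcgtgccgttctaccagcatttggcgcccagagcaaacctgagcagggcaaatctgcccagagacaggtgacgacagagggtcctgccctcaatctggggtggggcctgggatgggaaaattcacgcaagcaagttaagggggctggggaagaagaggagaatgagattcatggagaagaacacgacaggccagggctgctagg

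Tap1 and Psmb9 are read in opposite directions from neighbouring starts, and their windows share 275 of 300 bases, so only the Tap1 window is printed. On chromosome 17, Psmb9, Tap1, Psmb8 and Tap2 follow each other with no other annotated gene between them. Both strands of each window were searched. The interferon response element was found in 3 of the 10 windows of these genes (B2m starting at position -139, Erap1 at -9 and -3, Psme1 at 11), against 8.56% of 32851 mouse windows of the same length. Its 2 matches in Erap1 overlap and lie on the opposite strand, which gives 1 run of capitals. The gamma-activated site was found in 1 window (Psmb8, starting at -97), against 8.30% of all windows, and the kappa B element in 1 (B2m, at -126), against 8.46%. In B2m the matches to the 2 elements do not overlap. A match describes these letters only.

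None of the 10 genes differed between P90 and P30 mucosa in the limma test after adjustment over all 20825 genes, and B2m came closest. Genes past that test made up 0% of all genes (smallest adjusted p = 0.617). Without adjustment, at p below 0.05, 1 of the 10 genes was lower at P90 (B2m) and 0 were higher, against 5.31% of all genes lower and 2.59% higher. The mean log2 P90/P30 lay below 0 for 7 of the 10 genes, against 54.4% of all genes. Their median was -0.20, where the median over all genes was -0.020. It was -0.082 with the scanner's own log ratios and -0.11 without array a. In these ratios 0 of the 10 genes kept 1 direction on all 4 arrays, while 7.98% of all genes lay below 0 on all 4 and 6.15% above 0 on all 4.

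**Figure D1:**
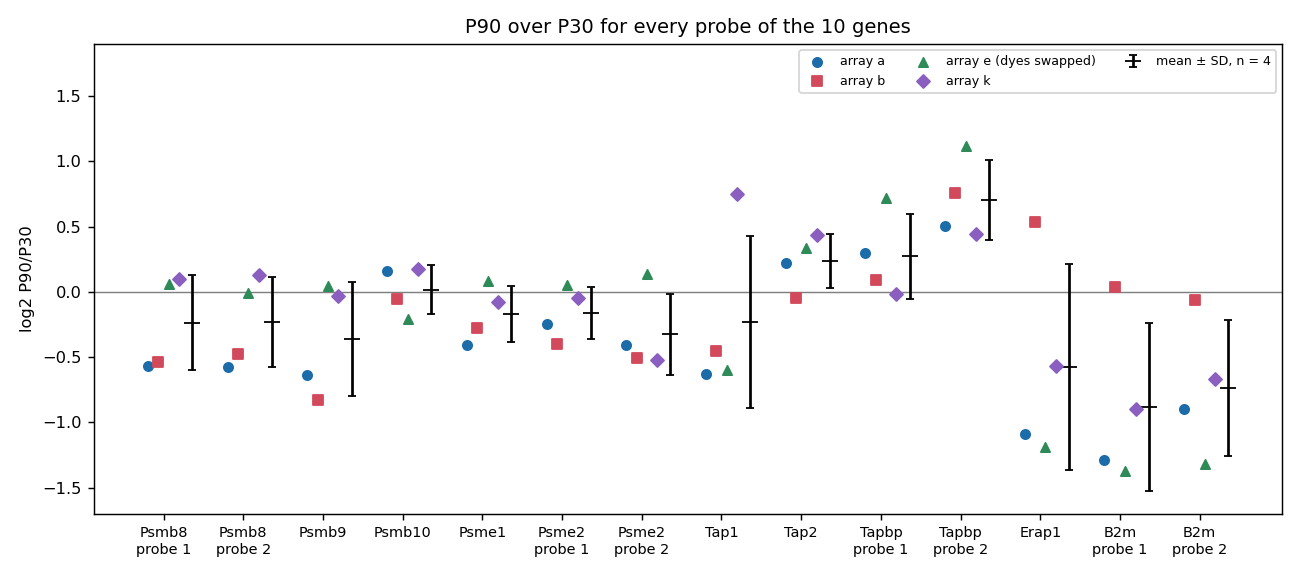
Log2 P90/P30 (vertical axis) of the 14 probes of the 10 genes, with 1 point per array and the mean with its SD over the 4 arrays. Erap1 and both probes of B2m lie between -1.37 and -0.57 on arrays a, e and k and between -0.064 and 0.54 on array b, Tap1 is split by array k, and the second probe of Tapbp is above 0 on all 4 arrays.

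The arrays themselves did not all run the same way. Over all genes the ratios of array b had a Pearson r of -0.31, -0.27 and -0.19 with those of a, e and k, while a, e and k correlated positively with each other (r from 0.31 to 0.60). With every probe included, r between a and b was -0.303. Array b was not turned, since its dyes are stated in the labels, and the text says which means of the 10 genes change sign when it is turned. P90 channels had 55.6% to 69.3% of gene spots well above background and P30 channels 64.6% to 71.0%. The medians of the 10 genes were -0.49, -0.17, 0.049 and -0.022 on arrays a, b, e and k, so the low median of the 10 genes came from arrays a and b. Of the 10 genes, 7 lay below 0, 7, 4 and 6 on arrays a, b, e and k. Without array b, 2 of the 10 genes lay below 0 on all of a, e and k (B2m and Erap1), against 27.1% of all genes, and 1 lay above 0 on all 3 (Tap2), against 20.5%.

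Psmb8 and Psmb9, the inducible catalytic subunits encoded beside the transporter genes, shared 1 pattern over the arrays. Psmb9 had normalized intensities of 2675, 2572, 3869 and 4186 at P90 on arrays a, b, e and k, against 4155, 4575, 3741 and 4273 at P30. These intensities include an offset of 50. Their average log intensity over the channels was quantile-normalized between arrays, but the single channels were not. The ages are therefore compared within each array. The P90 channel was clearly the lower one on arrays a and b, and the channels were nearly equal on e and k. The log2 P90/P30 of Psmb9 was -0.64, -0.83, 0.048 and -0.030 on arrays a, b, e and k, with a mean of -0.36 ± 0.44 (SD, n = 4; limma adjusted p = 0.659).

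Psmb8 had intensities of 3363, 2983, 3962 and 3824 at P90 on arrays a, b, e and k, against 4984, 4332, 3791 and 3579 at P30. Its log2 P90/P30 was -0.57, -0.54, 0.064 and 0.096, with a mean of -0.24 ± 0.37 (SD, n = 4; limma adjusted p = 0.746). The split ran again between a and b on one side and e and k on the other, so that for both genes the mean lay within the spread of the arrays. The second Psmb8 probe differed from the first by at most 0.070 on any array and averaged -0.23 ± 0.34. Psmb9 lay below the first Psmb8 probe on every array, by a mean of -0.13 ± 0.12, but by only -0.016 on array e. There the second Psmb8 probe, at -0.0059, lay below Psmb9, at 0.048. With array b turned, the means of Psmb8 (0.033) and Psmb9 (0.054) change sign.

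Psmb10, the inducible subunit encoded apart from the others on chromosome 8, gave log2 P90/P30 values of 0.16, -0.057, -0.21 and 0.18 on arrays a, b, e and k. Its channels stood at 31960, 32952, 46122 and 57247 at P90, against 28592, 34276, 53362 and 50586 at P30. The mean was 0.018 ± 0.19 (SD, n = 4; limma adjusted p = 0.988), the mean closest to 0 and the smallest spread of the 10 genes. No Psmb10 spot was marked saturated. Before normalization its P30 median signal on array k was 64590.5, close to the 65507 of saturated Psme2 spots. Psmb10 was higher at P90 on arrays a and k, where Psmb9 was not, and its mean takes either sign with the processing.

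Each inducible subunit was also set against the constitutive subunit whose place it takes, on the same array. Psmb8 minus Psmb5 was -1.04, -0.32, 0.10 and -0.058 on arrays a, b, e and k, with a mean difference of -0.33 ± 0.51 (SD, n = 4). Psmb9 minus Psmb6 averaged -0.038 ± 0.31, and Psmb10 minus Psmb7 averaged 0.039 ± 0.25. None of the 3 differences stood apart from 0 in the exact two-sided sign-flip permutation test (p = 0.375, 0.75 and 0.625 in that order, each 0.75 after Benjamini-Hochberg adjustment over the 3). With 4 arrays the smallest p this test can give is 0.125. The constitutive subunits themselves averaged 0.094 ± 0.30 (Psmb5), -0.32 ± 0.38 (Psmb6) and -0.021 ± 0.43 (Psmb7), and with array b turned all 3 had a mean above 0. Over the inducible minus the constitutive trio the difference was -0.46, -0.11, 0.12 and 0.018 on arrays a, b, e and k. Its mean of -0.11 ± 0.25 came from array a and was 0.0083 without it.

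**Figure D2:**
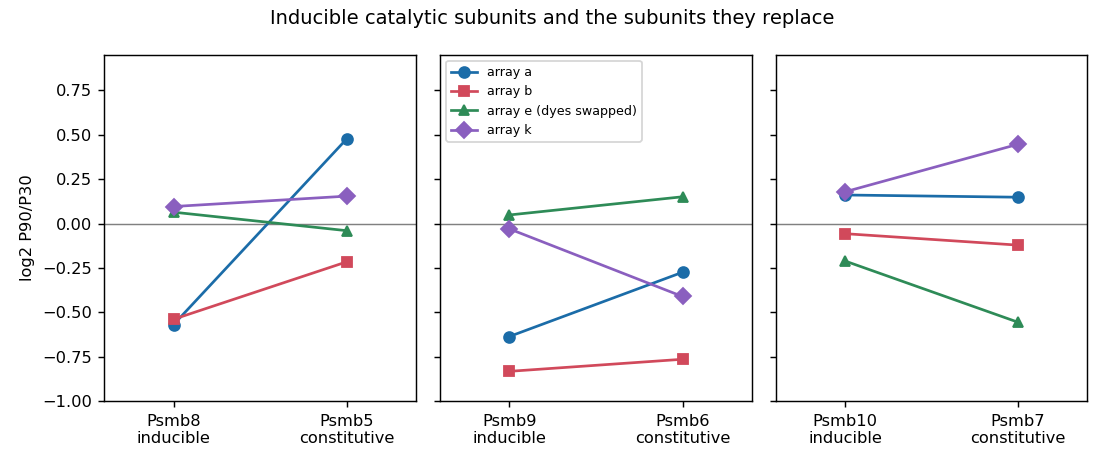
Log2 P90/P30 (vertical axis) of each inducible catalytic subunit beside the constitutive subunit it replaces, with 1 line per array. The lines of the Psmb9 and Psmb6 pair and of the Psmb10 and Psmb7 pair slope both ways, and the steepest line is that of array a for Psmb8 (-0.57) and Psmb5 (0.48).

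Psme1 and Psme2, which together form the ring of PA28 that opens the proteasome, both averaged below 0. Psme1 had intensities of 23184, 21954, 22856 and 21930 at P90 on arrays a, b, e and k, against 30792, 26598, 21585 and 23085 at P30. The P30 channel was the brighter one on a, b and k. Its log2 P90/P30 was -0.41, -0.28, 0.083 and -0.074, with a mean of -0.17 ± 0.22 (SD, n = 4; limma adjusted p = 0.779).

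The brighter Psme2 probe averaged -0.16 ± 0.20 (SD, n = 4; limma adjusted p = 0.786), but its spot was saturated in the P30 channel on a, b and k and in the P90 channel on e. Its ratios are therefore bounds on each array. The other Psme2 probe was saturated nowhere, with intensities of 30889, 27541, 37444 and 29555 at P90, against 41021, 39204, 34051 and 42409 at P30. It gave log2 P90/P30 values of -0.41, -0.51, 0.14 and -0.52 on arrays a, b, e and k, with a mean of -0.33 ± 0.31. Array e, the dye swap, stood apart from the other 3 for this probe. The mean of the brighter probe changes sign with array b turned (0.038) and with the deposited log ratios (0.062). On chromosome 14 both genes flank Emc9.

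Tap1, the transporter subunit that shares its promoter region with Psmb9, ran apart from it on arrays e and k, while on array b both were lower at P90. Its intensities were 207, 248, 162 and 334 at P90 on arrays a, b, e and k, against 320, 338, 246 and 199 at P30. P90 was lower on a, b and e and higher on k. The log2 P90/P30 of Tap1 was -0.63, -0.45, -0.60 and 0.75, with a mean of -0.23 ± 0.66 (SD, n = 4; limma adjusted p = 0.857). Without array k the mean was -0.56, and below 0 on all 3 remaining arrays. Psmb9 minus Tap1 was -0.0070, -0.38, 0.65 and -0.78 on arrays a, b, e and k, with no one direction.

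Tap2, the partner of Tap1 in the transporter, lay on the other side of 0. It had intensities of 880, 816, 737 and 1018 at P90 on arrays a, b, e and k, against 754, 843, 584 and 751 at P30. Its log2 P90/P30 was 0.22, -0.045, 0.34 and 0.44, with a mean of 0.24 ± 0.21 (SD, n = 4; limma adjusted p = 0.670). Apart from array b, P90 was the higher channel. Tap2 and B2m were the 2 of the 10 genes whose mean exceeded their SD, which held for 16.4% of all genes.

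Tapbp, or tapasin, which bridges the transporter and the class I molecule during loading, was read by 2 probes that disagreed in size. The brighter probe had intensities of 29439, 24626, 24200 and 19955 at P90 on a, b, e and k, against 23942, 23143, 14702 and 20152 at P30. This gave log2 P90/P30 values of 0.30, 0.090, 0.72 and -0.014, with a mean of 0.27 ± 0.32 (SD, n = 4; limma adjusted p = 0.682). The dimmer probe, matched to another transcript accession of the gene, had 1748, 2117, 907 and 1114 at P90, against 1233, 1249, 418 and 820 at P30. Its log2 values of 0.50, 0.76, 1.12 and 0.44 were above 0 on all 4 arrays, with a mean of 0.71 ± 0.31. In the limma fit over all kept probes this probe had an unadjusted p of 0.0046 and an adjusted p of 0.585. The dimmer minus the brighter probe was 0.43 ± 0.19, and above 0 on all 4 arrays. Its p of 0.125 is the smallest that the exact two-sided sign-flip permutation test allows (0.50 after adjustment over the 4 genes with 2 probes).

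**Figure D3:**
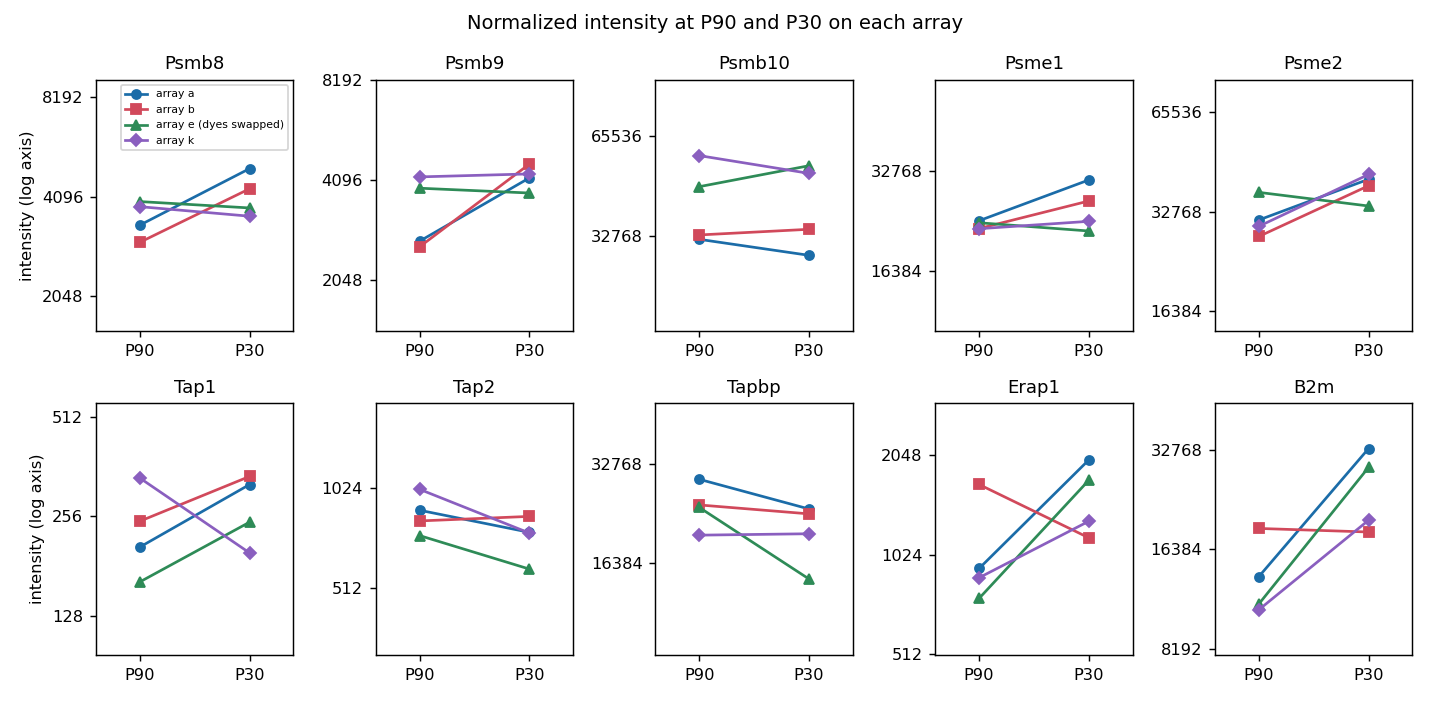
Normalized intensity (vertical axis, log scale, the same fold range in each panel) of 1 probe per gene at P90 and at P30, with 1 line per array; Psme2 is shown by its unsaturated probe. For B2m and Erap1 the lines of arrays a, e and k climb steeply toward P30 while array b is flat or runs the other way, and for Tap1 array k crosses the other 3.

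Erap1, the aminopeptidase that trims peptides in the endoplasmic reticulum, had the largest spread of the 10 genes. Its intensities were 929, 1668, 754 and 871 at P90 on arrays a, b, e and k, against 1979, 1151, 1718 and 1291 at P30. P90 was lower on a, e and k and higher on b. The log2 P90/P30 of Erap1 was -1.09, 0.54, -1.19 and -0.57, with a mean of -0.58 ± 0.79 (SD, n = 4; limma adjusted p = 0.656). Without array b the mean was -0.95 (limma adjusted p = 0.086, where the smallest over all genes was 0.080).

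B2m, the light chain that every classical class I molecule needs to reach the cell surface, had the lowest mean of the 10 genes. The brighter probe had intensities of 13553, 18960, 11201 and 10762 at P90 on a, b, e and k, against 33066, 18495, 29005 and 20074 at P30. P90 was the lower channel on a, e and k, and on b the channels were nearly equal. Its log2 P90/P30 was -1.29, 0.036, -1.37 and -0.90 on arrays a, b, e and k, with a mean of -0.88 ± 0.64 (SD, n = 4). The limma p of B2m was 0.016 before and 0.617 after adjustment over 20825 genes, where it ranked 509. Without array b the mean was -1.19, with a limma adjusted p of 0.080, which was the smallest over all genes in that fit. Genes can share an adjusted p, so this gives no rank. With all 4 arrays, B2m held the smallest limma adjusted p (0.617) at rank 509. Leaving out array b gave 4654 genes with an unadjusted limma p below 0.05, against 1645 with all 4 arrays.

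A second B2m probe is printed 10 times on each array, which separates the scatter between spots from that between arrays. Its log2 P90/P30 averaged -0.89, -0.064, -1.32 and -0.67 on arrays a, b, e and k. The SD between the 10 spots of an array was 0.033, 0.056, 0.041 and 0.072 on arrays a, b, e and k, whereas the SD between the 4 arrays was 0.52. On array b the spots ran from -0.16 to 0.0044. With the brighter B2m probe, B2m minus Erap1 stayed between -0.50 and -0.19. By that probe, each was the nearest of the other 9 genes to the other in its pattern over the arrays. The second B2m probe did not stay below Erap1: on array a it was at -0.89 and Erap1 at -1.09.

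**Figure D4:**
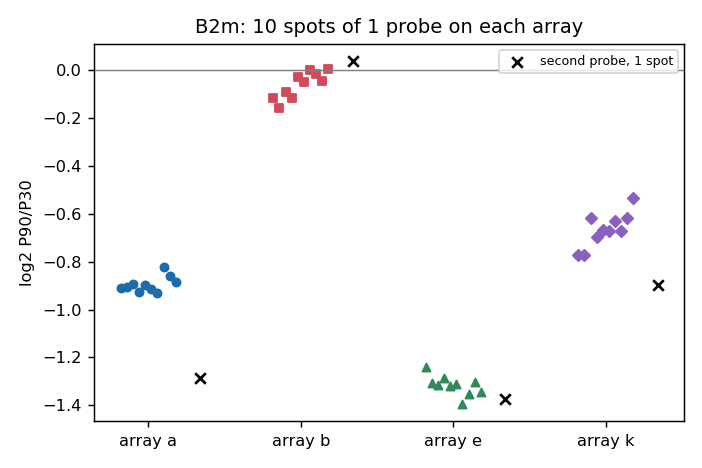
Log2 P90/P30 (vertical axis) of the 10 spots of 1 B2m probe on each array, with the single spot of the other B2m probe as a cross. The spots of each array lie in a narrow band around -0.89, -0.064, -1.32 and -0.67 on arrays a, b, e and k, and the cross of array b is at 0.036.

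Fibroblast and endothelial markers, like Erap1, lay below 0 on arrays a, e and k and above 0 on b. The medians of 6 fibroblast markers were -4.23, 1.45, -2.36 and -3.22 on arrays a, b, e and k, and those of 4 endothelial markers were -0.91, 0.94, -0.77 and -1.51. The summed intensity of the fibroblast markers ran from 1950 to 29006 in the P90 channels and from 10500 to 87077 in the P30 channels, and that of the endothelial markers from 704 to 2814 at P90 and from 1088 to 5169 at P30. Among the 14 leukocyte markers the array medians were -0.31, 0.69, -0.030 and -0.037, with sums of 2220 to 3877 at P90 and 2432 to 4157 at P30. The 6 adipocyte markers had array medians of 0.41, 2.35, 5.78 and 0.65, with sums of 6201 to 183960 at P90 and 3587 to 12368 at P30, and the 5 smooth muscle markers had array medians of 0.31, 0.73, 0.999 and -0.42, with sums of 14964 to 32017 at P90 and 20324 to 23655 at P30. All 10 epithelial markers were well above background in both channels of every array, and 6 were saturated on 3 or more arrays in a channel. Their sums ran from 462944 to 596995 at P90 and from 420921 to 522819 at P30. The 4 other epithelial markers had medians of -0.46, 0.25, -0.37 and -0.57 on arrays a, b, e and k. The ranges of these sums pool the 4 arrays, so they make no comparison between the ages. Every marker of these 6 lists was well above background on some array at each age. In both channels of every array this held for 11 of the 14 leukocyte, 4 of the 6 fibroblast and 4 of the 5 smooth muscle markers. The part of these cell types in the ratios of B2m, Erap1 and the other 8 genes was not tested, and in tissue RNA fewer cells of a type and less RNA per cell cannot be told apart.

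For the class I heavy chains, which pair with B2m, most ratios lay above 0 after loess. Of 20 heavy chain and related genes, 17 were found on the array by name and 16 passed the filter. Of these, 12 had a mean above 0 and 4 below it, where 54.4% of all genes lay below 0. The median of the 16 was 0.11, with array medians of 0.030, 0.098, 0.18 and 0.20 on arrays a, b, e and k. Without the 5 genes saturated on 3 or more arrays in a channel, 7 of 11 lay above 0 and the median was 0.064. The array medians of these 11 were -0.043, 0.076, 0.18 and 0.11 on arrays a, b, e and k, so array a fell below 0. With each array centred on its median, the median of the 16 was -0.15, where that of all genes was -0.21. The median of the 16 was 0.31 with the scanner's own log ratios and 0.17 without array a. The brightest of these 11 were H2-Q10, at 0.11 ± 0.30 (SD, n = 4), and H2-Q4, at 0.11 ± 0.48, of which H2-Q10 was saturated at P30 on 2 arrays and H2-Q4 on 1, where their ratios are bounds. Cd1d1, a lipid-presenting relative of class I chosen after its values were seen, was above 0 on all 4 arrays, at 0.47 ± 0.26. Heavy chain genes are close in sequence, and their probes may cross-hybridise. Of the loading chaperones, Calr averaged 0.13 ± 0.38 and Canx, which ran from -2.85 on a to 0.56 on b, averaged -0.94 ± 1.42.

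In the rest of the proteasome most ratios lay below 0. The 32 subunits outside the 10 genes were the 3 constitutive catalytic, 11 other core and 18 regulatory ones. Of these, 24 had a mean below 0, against 54.4% of all genes. The median of the 32 was -0.19 (-0.050 with the scanner's own log ratios and -0.040 with array b turned). On all 4 arrays 9 of the 32 lay below 0, against 7.98% of all genes, and 0 above it (4 below and 4 above with array b turned), and 9 had an unadjusted limma p below 0.05 with a lower P90 value, against 5.31% of all genes. None passed the adjusted test. Without array b, 13 of the 32 lay below 0 on a, e and k (40.6%, against 27.1% of all genes). The brightest core subunits were Psma5 (-0.070 ± 0.076) and Psmb4 (-0.19 ± 0.19), and the brightest regulatory ones Psmd11 (-0.45 ± 0.16) and Psmd2 (0.0042 ± 0.10). Chosen after their values were seen, Psma4 (-0.65 ± 0.14) and Psma3 (-0.86 ± 0.43) were the lowest of the core. Pomp, the assembly factor of the core particle, was at -0.46 ± 0.20, below 0 on all 4 arrays (limma adjusted p = 0.617). Psme4, another activator, was at -0.54 ± 0.90.

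**Figure D5:**
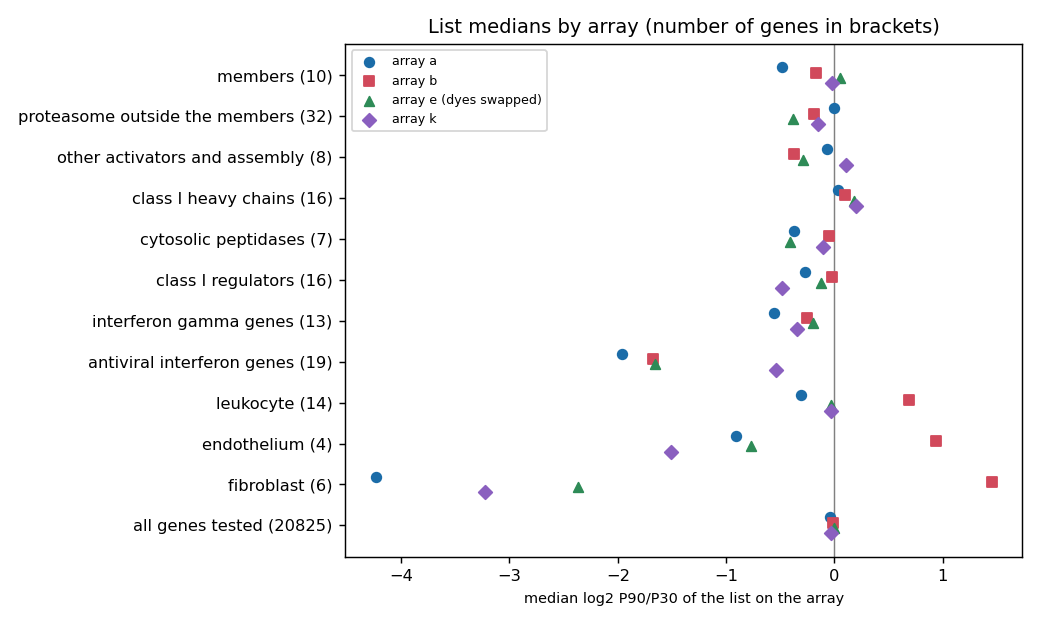
Median log2 P90/P30 (horizontal axis) on each array of the 10 genes ("members"), of other lists of the pathway, of 3 cell type marker lists and of all genes tested, with the number of genes in brackets. The 10 genes lie between -0.49 and 0.049 and the proteasome between -0.38 and -0.0056, the antiviral genes lie below 0 on all 4 arrays, and leukocyte, endothelial and fibroblast markers lie above 0 on array b alone.

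Peptidases of the cytosol, which cut proteasome products further, had a median of -0.17 over 7 genes (-0.066 without array a, -0.30 without b and -0.081 without e). Of the 7, 6 lay below 0, against 54.4% of all genes. Lap3 was at -0.044 ± 0.091 and Npepps, below 0 on all 4 arrays, at -0.48 ± 0.34. Among 16 measured regulators of class I genes (18 listed), 13 lay below 0, against 54.4% of all genes. The median of the 16 was -0.26 (-0.11 with the scanner's own log ratios and -0.12 without array k). Irf9, a transcription factor of the interferon response chosen after its values were seen, was at -1.05 ± 0.44 and below 0 on all 4 arrays (limma adjusted p = 0.617). The receptor chain Ifngr1 was at -0.27 ± 0.60, and Irf1, a direct activator of Psmb9 and Tap1, at 0.15 ± 0.34.

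Lists of other interferon targets had medians below 0 as well. Of 13 interferon gamma genes, 10 lay below 0 (54.4% of all genes did) and 5 of these on all 4 arrays (7.98% of all genes). Their median was -0.31, but -0.96 with the scanner's own log ratios and -0.18 without array a. Ubd, a ubiquitin-like modifier chosen after its values were seen, was above 0 on all 4 arrays, at 1.47 ± 0.59. The guanosine triphosphatases Igtp (-1.26 ± 0.55) and Irgm2 (-1.31 ± 0.39) were below 0 on all 4. The 19 measured antiviral interferon genes had a median of -1.23 (-1.88 with the scanner's own log ratios and -0.63 with array b turned). On all 4 arrays 15 were below 0 (1 with array b turned), against 7.98% of all genes, with array medians of -1.96, -1.68, -1.66 and -0.54. The brightest of them were Oas1a (-0.88 ± 0.63), an activator of RNA decay, and Bst2 (-1.39 ± 1.09), which tethers virus particles. The array medians of the 10 genes, -0.49, -0.17, 0.049 and -0.022, lay closer to 0 on each array than those of the antiviral genes. The difference between the lists was not tested.

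In their pattern over the 4 arrays, the genes outside the set nearest to the median of the 10 genes, by Euclidean distance among 13898 genes with a symbol, were Rpgrip1 (0.086), Tcf7 (0.15), Bod1l (0.15), Paxip1 (0.15) and Rnf151 (0.15). The likeness rests on 4 values per gene.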

How the data were processed

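Each of the 4 arrays compared 1 P90 with 1 P30 RNA of mouse colonic mucosa. Per the file headers, the deposited files of each scan give linear intensity (median brightness and local background per channel) from Agilent Feature Extraction (version 10.5.1.1 in the headers, 8.5.1.1 in the submitters' processing notes) under a protocol named for genomic hybridisation. Their deposited log10 ratio divides Cy5 by Cy3, from background-subtracted, dye-scaled signals, per the file headers. The deposited series value table holds log2 P90/P30: it matched the deposited log ratios, turned and rescaled, within 0.01 for 80.0%, 87.0%, 86.5% and 80.5% of probes on arrays a, b, e and k, with column medians of 0.21, -0.17, 0.049 and 0.17. The deposited outlier, background and saturation marks (other) were taken per spot.

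Median signals were used because the files hold no mean signal. Background was corrected with normexp (offset 50), followed by loess within each array (span 0.3), in limma 3.58.1 under R 4.3.3. For the printed intensities, the average log intensity of the 2 channels was then quantile-normalized between arrays, which leaves the ratios unchanged. Outlier spots were left out (127 to 156 per array), but not saturated ones, and ratios were expressed as log2 P90/P30. Probes well above background on at least 3 arrays in either age were kept (27055, or 65.7%), and the brightest kept probe stood for its gene. Of the 41174 probes, 25097 were named through RefSeq accessions of GRCm38.p6. Mean log2 ratios were tested against 0 with lmFit and eBayes over 4 arrays, with Benjamini-Hochberg adjustment over 20825 genes at a threshold of 0.05. Differences between 2 genes on an array were tested by exact sign-flip permutation. The script was tested on simulated data. The number of arrays limits the precision of every value.

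The genes and lists were chosen with earlier results of these data known. Named are the 10 genes, Psmb5, Psmb6 and Psmb7, the 2 brightest members of the other lists that are not saturated on 3 or more arrays, and the 5 genes nearest in pattern; others are said to be chosen after their values were seen. Some of the genes that this rule names, mostly cell type markers, are given only within their list. Some results are not reported here. Alternatives covered background correction, normalization, filters, saturated spots, the choice of probe, each array left out, array b turned, a dye term, array weights and a variance trend. A fit over all kept probes and list counts without array b were chosen after seeing the data.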

Additional observations from a re-analysis of the deposited data

Results flagged for a closer look

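Of 48 sets of 4 values tested for a single array far from the others, 2 stood apart by Dixon's criterion, and chance alone gives about 1 in 20. The log2 P90/P30 of Tap1 was 0.752 on array k, where arrays a, b and e lay between -0.63 and -0.45. The unsaturated Psme2 probe was at 0.137 on array e, the dye swap, where arrays a, b and k lay between -0.52 and -0.41.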

How the results depend on the processing

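B2m and Erap1 had a mean below 0 under all 18 alternatives (-1.20 to -0.72 for B2m, with adjusted p from 0.080 to 1.0, and -0.98 to -0.37 for Erap1). Tap1 (-0.56 to -0.0066) and Psme1 (-0.48 to -0.0054) also stayed below 0, but came close to it. Genes past the test over the whole table numbered 1 with an offset of 16 (Cyp3a44) and 2 with the processed signals, the value table or the scanner's log ratios (Cyp3a16 and Cyp3a44), and 0 otherwise, leave-one-out range 0 to 0 included. Centring each array on its median moved the median of all genes to -0.21 and that of the 10 genes to -0.51. Under it 4 of the 10 genes lay below 0 on all 4 arrays (Psmb8, Psmb9, Psmb10 and B2m), and Tap2 (-0.16), Tapbp (-0.043) and Psmb10 (-0.27) had negative means. That count was 1 (B2m) when the probes of a gene were averaged and with the value table and the scanner's log ratios, 2 (B2m and Erap1) with array b turned, and 0 to 3 with 1 array left out. Leaving out 1 array moved the inducible minus constitutive difference between -0.19 and 0.0083 (without array a), and the mean of Psmb10 between -0.036 and 0.094, with -0.030 without array a. Psmb10 was also negative with an offset of 16 (-0.0034) and a dye term (-0.058). With array b turned, the median of the 10 genes was 0.035, and Psmb8 (0.033), Psmb9 (0.054) and Psme2 (0.038) were positive. Psme2 was 0.062 with the scanner's log ratios and 0.062 with the value table. The causes were not tested. The test of the ratio against 0 is itself paired by array, since each array holds 1 P90 and 1 P30 RNA.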
